A study of Mus musculus with 27 samples.

Results

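The first 12 h of culture with Flt3 ligand (Flt3-L) were followed in mouse bone marrow cells by comparing 3 arrays titled as 12 h of Flt3-L stimulation without cyclosporin A with 3 arrays titled as unstimulated. These are 6 of the 27 arrays of the series, and 19935 genes were tested on them. All cells came from the femurs and tibiae of C57BL/6 mice aged 8 to 12 weeks. The Flt3-L 12 h cells were kept in medium with 10% serum and Flt3-L at about 200 ng/ml, which came from transfected B16 tumour cells. Nothing in the labels tells if the unstimulated cells were lysed right after harvest or were kept in the same medium without the ligand. The ligand, other products of the B16 cells, the serum, plating and time since harvest therefore cannot be told apart. The series also held Flt3-L cultures of 24 h, 48 h and 11 days, and parallel cultures with cyclosporin A (CsA, an inhibitor of the phosphatase calcineurin) at 2 µg/ml. The 24 h cultures without CsA and the 12 h cultures with CsA are used below to place the 12 h changes. The design lists each group as 3 biological replicates, without saying how many mice each came from.

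Flt3 is a receptor tyrosine kinase of early haematopoietic progenitors, and its ligand drives their growth and their development towards conventional and plasmacytoid dendritic cells. Whole bone marrow cultured with Flt3-L is a common source of both kinds of dendritic cell. The starting marrow is a mixture, in which neutrophils and their precursors, erythroblasts and B lineage cells far outnumber the progenitors that carry the receptor.

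RNA was measured on whole transcript arrays, and the deposited intensities were robust multi-array average values on a linear scale. Array medians were 121.0 to 122.7 at 12 h and 119.4 to 120.5 in unstimulated cells. Arrays correlated at 0.9977 to 0.9984 among the 12 h replicates and at 0.9977 to 0.9983 among the unstimulated replicates, against 0.9883 to 0.99 between the groups, over all genes on the log2 scale. A log2 difference is always Flt3-L 12 h minus unstimulated. Adjusted p-values come from limma and were adjusted by Benjamini-Hochberg over all 19935 genes, and genes with an adjusted p under 0.05 are named as called. Intensities of different genes come from different probes and are not compared with each other. The arrays give no background level, so the change of a dim gene may be understated.

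Flt3 itself read 432, 435 and 417 on the Flt3-L 12 h arrays, against 295, 335 and 345 on the unstimulated arrays (log2 difference 0.40 ± 0.09 SE, adjusted p = 0.00117). The receptor was modestly higher after 12 h, with no overlap between the groups. The labelled tissue was checked with genes of marrow lineages. Each was read against its own level after 11 days of Flt3-L. S100a8, of neutrophils, averaged 5959.7 ± 234 in unstimulated cells, 5941 ± 24.1 at 12 h and 262 ± 25.8 at 11 days (SD, n = 3 each, as for the other markers). Slc4a1, of erythroblasts, averaged 7027 ± 266, 6781 ± 151 and 114 ± 2.97 at the same times. Rag1, of B cell precursors, averaged 459.5 ± 57.6, 686 ± 96.5 and 46.7 ± 8.48. For each of these 3 genes both early means were well above the 11 day mean. They were picked by hand, and other genes of these lineages fell by 12 h, among them Klf1 (-1.66), Trem1 (-1.05) and Igll1 (-0.41). The check therefore does not tell whether the lineages were stable over 12 h.

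At 12 h, 3554 genes were higher and 3615 lower than in unstimulated cells, 17.8% and 18.1% of all genes tested, and 36% together. Every count of list members at 12 h given below is to be read against these 17.8% and 18.1%. These shares include dim genes. With the dimmest 33.3% of genes left out, 3255 genes were still called higher and 3512 lower, so brighter genes had larger shares. A list moderately above 17.8% or 18.1% may therefore not stand out among brighter genes. The median log2 difference over all genes was 0.05. Most changes were small: 135 genes (0.677%) were called and at least 2-fold higher, and 221 (1.11%) were called and at least 2-fold lower. A change of at least 4-fold was seen for 21 genes higher and 22 lower, and one of at least 8-fold for 7 higher and 4 lower. All 3 arrays at 12 h lay above all 3 unstimulated arrays for 28.7% of genes, and below them for 21.3%. In bulk RNA, fewer cells of a type and less RNA per cell cannot be told apart, and this holds for every change described below.

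**Figure D1:**
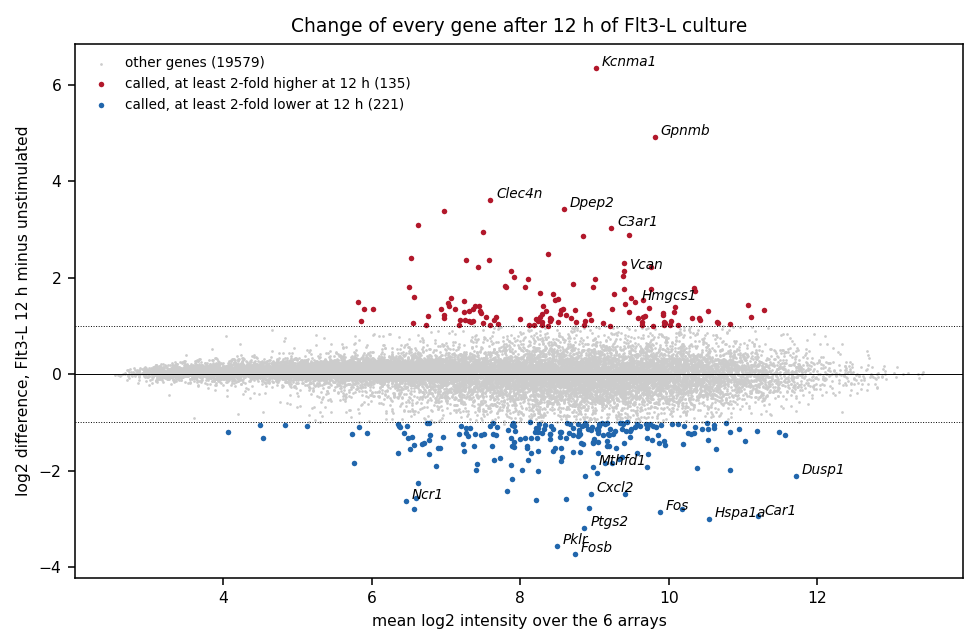
Each point is 1 gene, with its mean log2 intensity over the 6 arrays on the horizontal axis and its log2 difference, Flt3-L 12 h minus unstimulated, on the vertical axis. Red points are the 135 genes called and at least 2-fold higher at 12 h, and blue points the 221 called and at least 2-fold lower. Kcnma1 and Gpnmb stand above all other genes, and Fosb, Pklr and Ptgs2 lie lowest.

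Kcnma1, the pore subunit of the calcium-activated BK potassium channel, had the largest rise of any gene tested. It read 4681, 4711 and 4664 on the Flt3-L 12 h arrays, against 62.3, 50.5 and 61.2 on the unstimulated arrays (log2 difference 6.34 ± 0.10 SE, adjusted p = 1.96e-24). The 12 h arrays were close to each other and 81.1-fold above the unstimulated ones. A second, dimmer probe set of Kcnma1 had a log2 difference of 0.07, so the rise was seen by only 1 of its 2 probe sets.

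Gpnmb, a transmembrane glycoprotein of macrophages and a known target of the factor MITF, read 4942, 5073 and 4822 on the Flt3-L 12 h arrays, against 142, 194 and 162 on the unstimulated arrays (log2 difference 4.91 ± 0.07 SE, adjusted p = 1.44e-24). Clec4n, the lectin Dectin-2, which binds fungal mannans, read 595, 723 and 721 on the Flt3-L 12 h arrays, against 48.8, 61.7 and 56.2 on the unstimulated arrays (log2 difference 3.61 ± 0.13 SE, adjusted p = 1.3e-16). C3ar1, the receptor for the complement fragment C3a, read 1726, 1729.6 and 1687 on the Flt3-L 12 h arrays, against 179.5, 231 and 223 on the unstimulated arrays (log2 difference 3.03 ± 0.07 SE, adjusted p = 7.74e-21). On every 12 h array each of these 3 genes lay far above its own unstimulated readings, with rises of 30.1-fold, 12.2-fold and 8.17-fold.

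Further large rises were those of Dpep2, a dipeptidase that cleaves leukotrienes (3.42 ± 0.05, with 1.52 on its second probe set), and Tnip3, an A20-binding inhibitor of NF-kappaB (2.94 ± 0.13). Emp1 (2.87 ± 0.06) and Pmp22 (2.86 ± 0.08) are tetraspan membrane proteins of one family. Myof, a membrane repair protein, rose by 2.49 ± 0.06 and Anpep, the aminopeptidase CD13, by 2.37 ± 0.09. Ahrr, the repressor and target of the aryl hydrocarbon receptor, rose by 2.40 ± 0.11. F10, coagulation factor X, rose by 2.21 ± 0.08. All were called. Cd200r4 and Klk1b11, also among the large rises, belong to families of near-identical genes, whose probes may not tell the members apart.

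**Figure D2:**
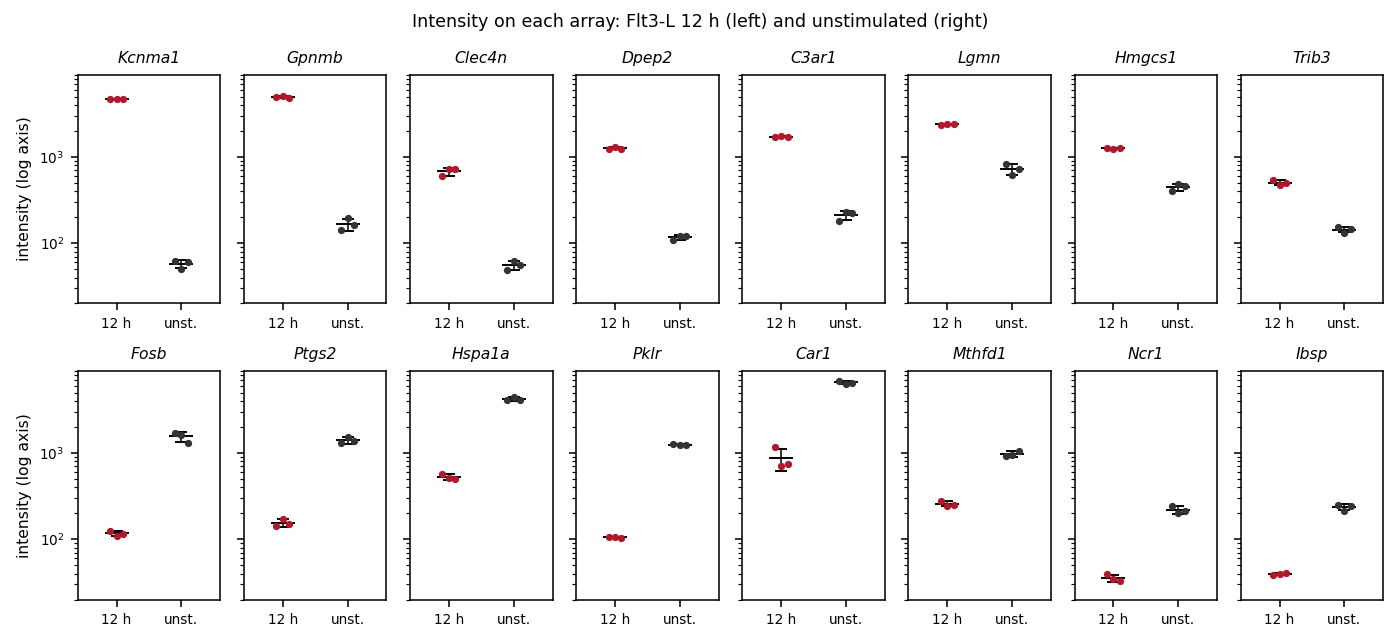
Intensity of 16 genes on each of the 3 Flt3-L 12 h arrays (red, left in each panel) and the 3 unstimulated arrays (grey, right), on a log axis. Bars give the mean and SD of 3 arrays. The top row holds genes that were higher at 12 h and the bottom row genes that were lower, and in none of the 16 do the groups overlap. The largest rises and falls were chosen among genes without overlap, so for those genes the separation was set by that choice.

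Immediate early genes, which are switched on within minutes of a stimulus without new protein, were lower for 19 of 26 tested, with 2 higher. Their median log2 difference was -0.63, against 0.05 over all genes. Fosb, a subunit of the factor AP-1, read 126, 110.4 and 116 on the Flt3-L 12 h arrays, against 1726, 1629 and 1315 on the unstimulated arrays. Its level was 13.2-fold lower at 12 h (log2 difference -3.72 ± 0.11 SE, adjusted p = 5.28e-18), the largest fall of any gene tested. Fos read 338, 392 and 324 on the Flt3-L 12 h arrays, against 2589, 2542 and 2537 on the unstimulated arrays (log2 difference -2.87 ± 0.09 SE, adjusted p = 1.34e-17). Jun, its usual partner, read 963, 889 and 896 on the Flt3-L 12 h arrays, against 3562, 3595 and 3668 on the unstimulated arrays (log2 difference -1.98 ± 0.05 SE, adjusted p = 2.46e-19).

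Dusp1, the phosphatase that switches off p38 and JNK kinases, read 1613, 1661 and 1562 on the Flt3-L 12 h arrays, against 7418, 7216 and 6436 on the unstimulated arrays (log2 difference -2.12 ± 0.07 SE, adjusted p = 2.27e-17). The zinc finger factors Egr1 (-1.63 ± 0.12), Klf2 (-1.48 ± 0.07) and Klf4 (-1.23 ± 0.07) fell, as did Ier2 (-1.54 ± 0.10) and Nr4a1 (-1.16 ± 0.07). Zfp36, which destabilises cytokine mRNAs, fell by 1.15 on the log2 scale. Myc fell less (-0.61 ± 0.07). Ier3 and Nr4a3 were called higher, at 0.26 and 0.42, so the list did not move as one. Ier3 was not called without replicate 2 at 12 h or without unstimulated replicate 1.

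Of 15 heat shock chaperone genes tested 13 were lower and 2, Dnajb4 and Bag3, were higher, with a median of -0.68. Hspa1a, the inducible HSP70, read 578, 509 and 501 on the Flt3-L 12 h arrays, against 4117, 4499.9 and 4108 on the unstimulated arrays. It was 8.02-fold lower at 12 h (log2 difference -3.00 ± 0.12 SE, adjusted p = 3.11e-16), and Hspa1b has near-identical sequence that the probes may share. Hsph1 (-1.42 ± 0.05), Dnajb1 (-1.31 ± 0.11) and Hsp90aa1 (-0.99 ± 0.06), partners of HSP70 and HSP90 in folding, fell in the same arrays. The mitochondrial chaperonin pair Hspd1 and Hspe1 fell by 1.22 ± 0.07 and 1.04 ± 0.07. At 24 h they were above the 12 h level, by 0.33 ± 0.07 and 0.29 ± 0.07 (adjusted p = 0.00121 and 0.00602). Hspa1a fell most of the list, and the 150 bases before its transcription start are given for that reason (RefSeq, mouse genome build GRCm38.p6, chr17:34972157-34972306, minus strand, written on the gene's strand). Capitals mark GAANNTTC, the core of a heat shock element, and ATTGG, which the other strand reads as a CCAAT box.
Hspa1a: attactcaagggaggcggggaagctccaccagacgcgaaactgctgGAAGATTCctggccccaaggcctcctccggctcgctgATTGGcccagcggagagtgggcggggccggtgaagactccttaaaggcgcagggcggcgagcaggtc
The letters GAANNTTC were found on either strand in the 300 bases around the start in 7 of 13 heat shock list genes with a RefSeq promoter (53.8%), against 6.8% of 15612 promoters of tested genes. A match describes letters and is no sign of binding.

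Genes for prostaglandin and leukotriene handling moved apart: 7 of 21 rose (33.3%) and 8 fell (38.1%), against 17.8% and 18.1% of all genes. Their median was 0.04. Ptgs2, the inducible cyclooxygenase, read 142, 172 and 151 on the Flt3-L 12 h arrays, against 1307, 1551 and 1380.3 on the unstimulated arrays and was 9.12-fold lower at 12 h (log2 difference -3.19 ± 0.15 SE, adjusted p = 1.74e-14). Hpgd, which inactivates prostaglandins, fell by 1.31 ± 0.10. Hpgds, the haematopoietic prostaglandin D synthase, read 332, 306 and 292 on the Flt3-L 12 h arrays, against 169, 123 and 120.3 on the unstimulated arrays (log2 difference 1.19 ± 0.10 SE, adjusted p = 4.52e-10). Pla2g7, an enzyme that breaks down platelet-activating factor, rose by 1.32 ± 0.07. Alox5 and Alox5ap, the start of leukotriene synthesis, had log2 differences of 0.07, not called, and 0.22, called. Ptgs2 and Hpgd were thus lower while Hpgds, Pla2g7 and Dpep2 were higher on the same arrays.

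Among 24 inflammatory cytokine and chemokine genes 8 rose (33.3%) and 7 fell (29.2%), against 17.8% and 18.1% of all genes. Cxcl2, a neutrophil chemokine, read 161, 245 and 233 on the Flt3-L 12 h arrays, against 1526, 1313 and 810.4 on the unstimulated arrays (log2 difference -2.49 ± 0.22 SE, adjusted p = 1.99e-09). Its unstimulated arrays were spread widely, and all lay above the 12 h ones. Osm, oncostatin M, fell by 1.85 ± 0.11, Il1b fell by 0.87 ± 0.19 and Ccl3 fell by 0.65 ± 0.07. Cxcl16, the ligand of CXCR6, read 236, 275 and 256 on the Flt3-L 12 h arrays, against 85.5, 94.8 and 89.6 on the unstimulated arrays (log2 difference 1.51 ± 0.10 SE, adjusted p = 5.16e-12). Ccl22 (0.80 ± 0.13) and Tnf (0.46 ± 0.09) also rose. Genes of NF-kappaB and its feedback were higher for 11 of 15, with 1 lower and a median of 0.45. Relb rose by 0.76 ± 0.08 and Nfkbia, the inhibitor IkBα, by 0.49 ± 0.08, while Nfkbiz fell (-0.53 ± 0.09).

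Sterol synthesis had the largest share of genes higher of the 44 lists. Of 17 enzymes tested, 15 were higher, none was lower, and the median log2 difference was 0.84. Hmgcs1, which makes HMG-CoA at the head of the pathway, read 1286, 1242 and 1266 on the Flt3-L 12 h arrays, against 398, 482 and 461 on the unstimulated arrays. The 12 h arrays lay 2.84-fold above the unstimulated ones, without overlap (log2 difference 1.50 ± 0.07 SE, adjusted p = 3.89e-15). Later steps rose too, with Msmo1 at 1.23 ± 0.07, Cyp51 at 1.15 ± 0.07 and Sqle, squalene epoxidase, at 0.99 ± 0.07. Dhcr7 and Ebp, which act late, had log2 differences of 0.11 and 0.02 and were not called.

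Of 15 genes for sterol control, uptake and export 8 were higher and 4 lower, with a median of 0.54. Insig1, which retains SREBP in the endoplasmic reticulum when sterols are plentiful, rose by 1.01 ± 0.06, and Srebf2 by 0.57 ± 0.04. Srebf1, the fatty acid branch, had a log2 difference of -0.11 ± 0.06 and was not called. Of 22 fatty acid and lipid droplet genes 6 were higher (27.3%) and 7 lower (31.8%), against 17.8% and 18.1% of all genes. Fasn, fatty acid synthase, did not pass the test (-0.01 ± 0.05). Scd1, the stearoyl-CoA desaturase, read 608, 599.5 and 661 on the Flt3-L 12 h arrays, against 1276, 1306 and 1437 on the unstimulated arrays (log2 difference -1.10 ± 0.11 SE, adjusted p = 6.91e-09). Fads2 and Fads1 fell by 0.48 ± 0.08 and 0.45 ± 0.06. The sterol branch was higher and the desaturases were lower on the same arrays.

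Genes for the release of lipid inside the cell were among those that rose. Npc1, which carries cholesterol out of lysosomes, read 2015, 2046 and 2050.3 on the Flt3-L 12 h arrays, against 862, 946 and 940.1 on the unstimulated arrays (log2 difference 1.15 ± 0.05 SE, adjusted p = 7.6e-16). Lipa, the lysosomal acid lipase, rose by 1.43 ± 0.05 and Fabp5, a fatty acid carrier, by 1.65 ± 0.09. Nr1h3, the oxysterol receptor LXRα, rose by 1.11 ± 0.08. Of its targets in cholesterol export, Abca1 had a log2 difference of -0.16 ± 0.07 and was not called, and Abcg1 fell (-0.28 ± 0.07). Apoe, another LXR target, rose by 0.73 ± 0.08.

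Hmgcs1 rose most of the list and its promoter holds both elements searched for this pathway, so the 300 bases from 250 before its start are given (RefSeq, GRCm38.p6, chr13:119690101-119690400, plus strand). Capitals mark TCACNCCAC, a sterol regulatory element, and CCAAT boxes, which read ATTGG on this strand.
Hmgcs1: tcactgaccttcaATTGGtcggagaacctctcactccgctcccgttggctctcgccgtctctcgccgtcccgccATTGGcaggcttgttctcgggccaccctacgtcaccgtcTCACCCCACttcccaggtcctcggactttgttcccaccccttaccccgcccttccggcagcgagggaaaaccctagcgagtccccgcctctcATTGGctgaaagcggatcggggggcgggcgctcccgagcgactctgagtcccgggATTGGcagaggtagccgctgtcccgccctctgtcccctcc
CCAAT stood on either strand in 13 of 14 sterol synthesis promoters (92.9%), against 38.2% of all 15612. The letters TCACNCCAC stood in 1 of the 14 (7.1%), that of Hmgcs1, and in 0 of 11 promoters for sterol control, uptake and export, against 1.2% of all. SREBP sites vary in sequence, and no match says only that these letters are not in the window.

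Lysosomal genes rose broadly. Of 25 hydrolase genes 18 were higher and 2 lower (median 0.39), and of 24 genes for the lysosomal membrane, its proton pump and the factors that govern both, 20 were higher and none was lower (median 0.35). Lgmn, the asparagine endopeptidase legumain, read 2341, 2401 and 2420.2 on the Flt3-L 12 h arrays, against 827, 619 and 728 on the unstimulated arrays (log2 difference 1.73 ± 0.09 SE, adjusted p = 4.1e-14). The cathepsins Ctss (0.93 ± 0.05), Ctsd (0.79 ± 0.04) and Ctsl (0.61 ± 0.08) rose too. Acp5, tartrate-resistant acid phosphatase of osteoclasts and macrophages, fell (-0.82 ± 0.07). Among pump subunits Atp6v1e1 rose by 0.63 ± 0.06, and the calcium channel Mcoln1 by 0.63 ± 0.06. Mitf, a member of the factor family that drives lysosomal genes, read 488, 493 and 474 on the Flt3-L 12 h arrays, against 202, 215 and 199 on the unstimulated arrays (log2 difference 1.24 ± 0.07 SE, adjusted p = 1.2e-12). A second probe set of Mitf had a log2 difference near 0 (-0.0005). Tfeb, of the same family, rose by 0.28 ± 0.05.

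Mcoln1 carries the element that these factors bind, TCACGTGA, close to its start, and the 100 bases before the start are given for that reason (RefSeq, GRCm38.p6, chr8:3500419-3500518, plus strand). Capitals mark the element.
Mcoln1: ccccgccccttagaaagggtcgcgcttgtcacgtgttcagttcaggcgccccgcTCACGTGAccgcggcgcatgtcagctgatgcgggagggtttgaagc
It stood in 4 of 19 membrane and pump promoters (21.1%) and in 2 of 22 hydrolase promoters (9.1%), against 1.4% of all. It contains the E-box CACGTG, which stood in 6 of 22 hydrolase promoters (27.3%), against 8.4%. Autophagy genes were higher for 14 of 22 and lower for 1 (median 0.23). Sqstm1, the cargo receptor p62, rose by 0.84 ± 0.06 and Ulk1, the kinase that starts autophagy, by 0.80 ± 0.05.

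Genes of oxidant defence were higher for 18 of 27 and lower for 3, with a median of 0.31. Slc7a11, the cystine importer that supplies glutathione synthesis, read 1476, 1529 and 1483 on the Flt3-L 12 h arrays, against 249, 347 and 330.3 on the unstimulated arrays (log2 difference 2.29 ± 0.10 SE, adjusted p = 1.48e-15). Srxn1, sulfiredoxin, read 498, 511 and 546 on the Flt3-L 12 h arrays, against 186, 195 and 199.9 on the unstimulated arrays (log2 difference 1.42 ± 0.06 SE, adjusted p = 5.32e-16). Both were well separated between the groups. Hmox1, haem oxygenase, rose by 0.81 ± 0.12, Prdx1 by 0.77 ± 0.07 and Txnrd1 by 0.51 ± 0.05. Of the subunits of the enzyme that makes glutathione's precursor, Gclm was not called (0.07 ± 0.07) and Gclc was lower, at -0.43. Letters of the antioxidant element, TGACNNNGC, stood in 7 of 24 promoters of the list (29.2%), against 13.4% of all.

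ATF4 governs the response to scarce amino acids, and 16 of 28 genes on that list rose, with 3 lower and a median of 0.23. Trib3, a pseudokinase induced under this stress, read 542, 472 and 497 on the Flt3-L 12 h arrays, against 152, 133 and 146 on the unstimulated arrays (log2 difference 1.81 ± 0.11 SE, adjusted p = 1.65e-12). Ddit3, the factor CHOP, read 816, 664 and 724 on the Flt3-L 12 h arrays, against 312, 342 and 361 on the unstimulated arrays (log2 difference 1.12 ± 0.11 SE, adjusted p = 6.64e-09). Sesn2 (0.99 ± 0.08), Ppp1r15a (0.97 ± 0.09), Chac1 (0.80 ± 0.11) and Asns (0.45 ± 0.07) rose as well. The mRNA of Atf4 itself was not called (0.11 ± 0.05), nor were Psat1 (-0.13 ± 0.07) and Phgdh (-0.10 ± 0.09) of serine synthesis. Transfer RNA synthetases, some of them ATF4 targets, were split, 5 of 19 higher (26.3%) and 7 lower (36.8%). Over all genes 17.8% were higher and 18.1% lower. Hars, for histidine, read 417, 369 and 376 on the Flt3-L 12 h arrays, against 749, 776 and 807 on the unstimulated arrays (log2 difference -1.01 ± 0.09 SE, adjusted p = 1.22e-09).

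Genes for folding in the endoplasmic reticulum went down, 13 of 20 lower and 4 higher, with a median of -0.24. Pdia4, counted as lower at -0.34, had a second probe set at 0.44. Dnajb9 (-0.68 ± 0.07), Sdf2l1 (-0.63 ± 0.11) and Hspa5, the chaperone BiP (-0.25 ± 0.06), fell, and Herpud1 rose (0.52 ± 0.07). Of the 4 that rose, only 2 were called higher when replicate 2 at 12 h or unstimulated replicate 1 was left out. Trib3 rose most of the ATF4 list, and 100 bases around its start are given (RefSeq, GRCm38.p6, chr2:152344011-152344110, minus strand, on the gene's strand). The stretch runs from -50 to 49 with the start at 0. Capitals mark the reverse complement of TGATGNAA, the composite site of C/EBP and ATF factors.
Trib3: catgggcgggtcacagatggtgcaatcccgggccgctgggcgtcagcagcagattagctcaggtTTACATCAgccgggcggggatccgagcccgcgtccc
Those letters stood in 5 of 25 promoters of the ATF4 list (20%) and in 4 of 12 synthetase promoters (33.3%), against 3.2% of all.

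**Figure D3:**
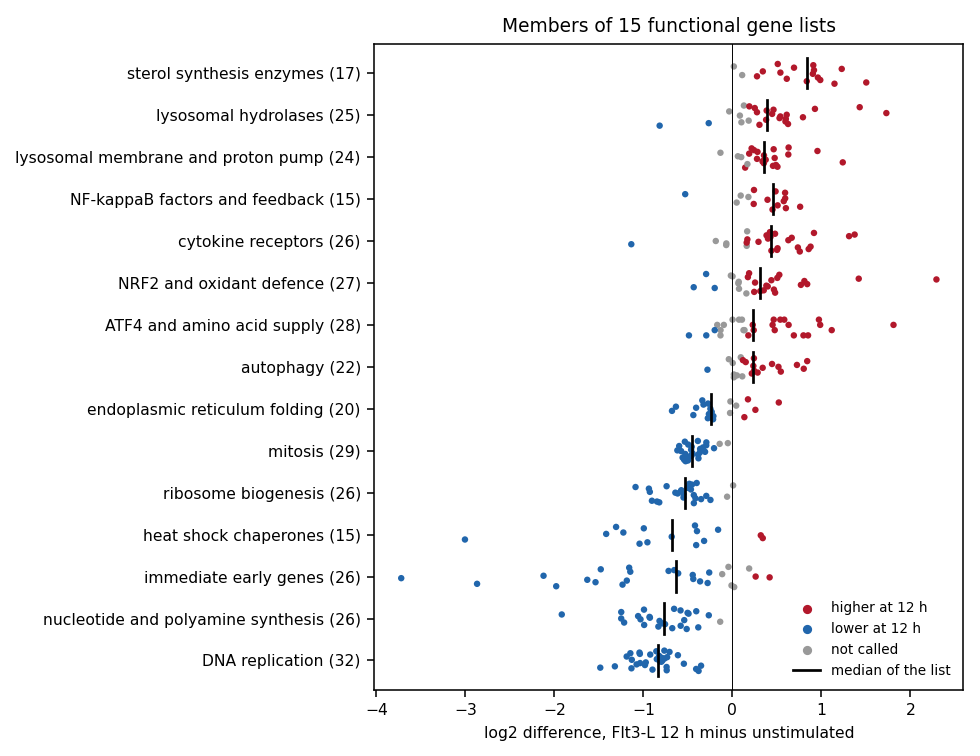
Log2 difference, Flt3-L 12 h minus unstimulated, of the members of 15 functional lists. Each point is 1 gene, red where called higher, blue where called lower and grey where not called, the black bar is the list's median, and the number of genes tested stands in brackets. Sterol synthesis has no blue point, and DNA replication has only blue ones.

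Genes for growth and division were lower in large majority. Ribosome biogenesis genes were lower for 24 of 26 and higher for none, with a median of -0.53. Nop58, a core protein of small nucleolar RNPs, read 343, 351 and 333 on the Flt3-L 12 h arrays, against 667, 714 and 808 on the unstimulated arrays (log2 difference -1.09 ± 0.09 SE, adjusted p = 3.37e-10). Nolc1 (-0.94 ± 0.04), Dkc1 (-0.93 ± 0.07) and Polr1b of RNA polymerase I (-0.90 ± 0.06) fell too. Polr1a and Pes1 were the 2 not called, at 0.01 and -0.06.

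Nucleotide and polyamine synthesis genes were lower for 25 of 26 and higher for none, with a median of -0.77. Mthfd1, which supplies one-carbon units for purines and thymidylate, read 279, 246 and 253 on the Flt3-L 12 h arrays, against 929.7, 947 and 1062 on the unstimulated arrays. It was 3.77-fold lower at 12 h, without overlap (log2 difference -1.92 ± 0.08 SE, adjusted p = 1.15e-15). Odc1, the entry to polyamine synthesis, fell by 1.25 ± 0.13, Ctps fell by 1.25 ± 0.08, Ppat fell by 1.22 ± 0.08 and Tyms, thymidylate synthase, fell by 1.03 ± 0.07. Dhodh, of pyrimidine synthesis, had a log2 difference of -0.14 and was not called.

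DNA replication genes were lower for all 32 of 32 tested, between -1.48 and -0.35, with a median of -0.84. Orc1, the largest origin recognition subunit, read 142, 142 and 140.2 on the Flt3-L 12 h arrays, against 398, 383 and 406 on the unstimulated arrays (log2 difference -1.48 ± 0.10 SE, adjusted p = 2.47e-11). Cdc6, which loads the replicative helicase with it, read 254, 267 and 229 on the Flt3-L 12 h arrays, against 591, 631 and 648 on the unstimulated arrays (log2 difference -1.32 ± 0.09 SE, adjusted p = 6.28e-12). The helicase subunits Mcm2 and Mcm5 fell by 1.15 ± 0.06 and 0.79 ± 0.07, and Pcna, the sliding clamp, fell by 0.76 ± 0.06. Of 29 mitosis genes 27 were lower and none higher, between -0.62 and -0.05, with a median of -0.46. Cdk1, the mitotic kinase, read 1475, 1476 and 1539 on the Flt3-L 12 h arrays, against 2147, 2193 and 2276 on the unstimulated arrays (log2 difference -0.56 ± 0.06 SE, adjusted p = 8.43e-08). Plk1 (-0.46 ± 0.06), Bub1 (-0.60 ± 0.07), Top2a (-0.50 ± 0.06) and Mki67 (-0.36 ± 0.05) fell in the same range. No difference between the replication and mitosis lists was tested. Erythroid genes, whose cells divide rapidly in marrow, were lower on the same arrays, 15 of 25 with a median of -0.39, and their part in the fall of the division genes was not tested.

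For the division genes, stretches of 3 promoters that carry the elements of their lists are given (RefSeq, GRCm38.p6, on each gene's strand). Orc1 (chr4:108579354-108579453, plus strand, bases -100 to -1 from the start) and Mcm5 (chr8:75109309-75109408, plus strand, 100 bases from -200) carry TTTNNCGC, an E2F site, in capitals on either strand, and in Mcm5 matches on both strands overlap. Cdk1 (chr10:69352913-69353062, minus strand, bases -150 to -1) carries TTTGAA, the cell cycle genes homology region, CCAAT boxes that read ATTGG, and a pair of matches to the E2F letters, all in capitals.
Orc1: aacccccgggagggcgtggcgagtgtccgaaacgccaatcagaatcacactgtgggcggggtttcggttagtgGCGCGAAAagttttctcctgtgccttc
Mcm5: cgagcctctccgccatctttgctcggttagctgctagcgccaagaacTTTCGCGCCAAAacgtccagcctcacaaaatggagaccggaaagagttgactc
Cdk1: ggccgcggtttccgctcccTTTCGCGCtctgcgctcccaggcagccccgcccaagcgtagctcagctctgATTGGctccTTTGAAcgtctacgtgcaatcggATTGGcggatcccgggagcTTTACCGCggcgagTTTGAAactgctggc
E2F letters stood in 12 of 27 replication promoters (44.4%) and in 1 of 24 mitosis promoters (4.2%), that of Cdk1, against 6.7% of all. TTTGAA stood in 17 of 24 mitosis promoters (70.8%) and in 5 of 27 replication promoters (18.5%), against 15.2%. CCAAT stood in 18 of 24 mitosis promoters (75%), against 38.2%. The E-box CACGTG stood in 6 of 21 ribosome biogenesis promoters (28.6%) and in 4 of 23 promoters for nucleotide and polyamine synthesis (17.4%), against 8.4%. It also stood in 5 of 15 promoters of clock genes (33.3%), a list with more genes higher than lower. The E-box was thus not particular to lists that fell.

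Of 23 genes for cyclins, their kinases and inhibitors, and the E2F and pocket proteins, 16 were lower and 1 was higher. Ccne1, cyclin E1 of entry to S phase, read 640.3, 546 and 529 on the Flt3-L 12 h arrays, against 1568, 1464 and 1594 on the unstimulated arrays (log2 difference -1.44 ± 0.08 SE, adjusted p = 1.43e-13). Ccnd3 (-0.48 ± 0.06) and Ccnd2 (-0.24 ± 0.07) of the D cyclins fell. The 1 rise was that of Cdkn1b, the inhibitor p27, which read 3308, 3123 and 3329.9 on the Flt3-L 12 h arrays, against 2349.6, 2326 and 2348 on the unstimulated arrays (log2 difference 0.47 ± 0.06 SE, adjusted p = 1.79e-06). Targets of p53 were higher for 11 of 21 and lower for 4, Trp53inp1 among the higher (0.69 ± 0.05). Plk2, a kinase on that list, fell most of it (log2 difference -1.78 ± 0.09 SE, adjusted p = 7.72e-14). In the BCL2 family and caspase list 7 of 17 rose (41.2%) and 5 fell (29.4%), against 17.8% and 18.1% of all genes. The death-promoting Bcl2l11, which encodes BIM, rose by 0.67 ± 0.07, Bbc3 by 0.63 ± 0.07 and Bmf by 0.58 ± 0.10, and the protective Bcl2 fell by 0.64 ± 0.11. Other members went the opposite way for their role. The death-promoting Pmaip1 (-0.45 ± 0.07), Bak1 (-0.25 ± 0.07) and Bid (-0.20 ± 0.06) fell, and the protective Bcl2l2 (0.39 ± 0.09) and Bcl2l1 (0.18 ± 0.06) rose. Bcl2l1 was not called without replicate 1 or 3 at 12 h, or without unstimulated replicate 1 or 2.

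Receptors for cytokines rose together. Of 26 tested, 20 were higher and 1 was lower, with a median of 0.43. Csf2rb2, the IL-3-specific beta chain of mice, read 1279, 1434 and 1414 on the Flt3-L 12 h arrays, against 502, 585 and 508 on the unstimulated arrays (log2 difference 1.37 ± 0.07 SE, adjusted p = 2.82e-14). Csf2rb, the shared beta chain for IL-3, IL-5 and GM-CSF, rose by 0.63 ± 0.06, but Csf2ra, the alpha chain of the GM-CSF receptor, was not called (0.16 ± 0.09). Tnfrsf1b, a TNF receptor, read 2266, 2359 and 2386 on the Flt3-L 12 h arrays, against 888, 968 and 971 on the unstimulated arrays (log2 difference 1.31 ± 0.05 SE, adjusted p = 1.84e-15). Ifnar1 (0.92 ± 0.04), Il10rb (0.88 ± 0.05), Il7r (0.86 ± 0.06) and Csf1r (0.76 ± 0.06) rose, and Kit was not called (-0.07 ± 0.12). Epor, the erythropoietin receptor, was the 1 member that fell (-1.14 ± 0.10).

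Feedback genes of receptor signalling were divided, 7 of 22 higher and 7 lower (31.8% each), against 17.8% and 18.1% of all genes. Pim1, a kinase induced by STAT5, read 3721, 3730.5 and 4152 on the Flt3-L 12 h arrays, against 2246, 2212 and 2156 on the unstimulated arrays (log2 difference 0.81 ± 0.05 SE, adjusted p = 1.48e-11). Cish, another STAT5 target, was not called (0.07 ± 0.08), and Socs2 fell (-0.44 ± 0.13), although its second probe set had a log2 difference of -0.12. Socs3, counted as lower at -0.41, had a second probe set at 0.03. Dusp6 (-0.60 ± 0.04) and Spred2 (-0.67 ± 0.08), feedback inhibitors of the ERK cascade, fell, and Spry2 was not called (-0.05 ± 0.11).

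Macrophage genes split into a group that rose and a group that fell. Of 27 monocyte and macrophage genes 14 were higher and 8 lower, with a median of 0.21. Beside Gpnmb and C3ar1, Mmp12, macrophage elastase, read 195, 156 and 148 on the Flt3-L 12 h arrays, against 50.5, 70.0 and 45.5 on the unstimulated arrays (log2 difference 1.60 ± 0.13 SE, adjusted p = 2.32e-10). Cd68 (0.96 ± 0.05), Adgre1, which encodes F4/80 (0.87 ± 0.06), and Mmp14 (1.19 ± 0.14) rose, as did the factor Maf (0.68 ± 0.08). The genes for all 3 chains of C1q fell. C1qa, a chain of complement C1q, read 178, 169.8 and 143 on the Flt3-L 12 h arrays, against 442, 340.5 and 335 on the unstimulated arrays (log2 difference -1.18 ± 0.15 SE, adjusted p = 6.96e-07). C1qc fell by 1.22 ± 0.17 and C1qb fell by 0.67 ± 0.12. Cd163, the haptoglobin-haemoglobin receptor, fell by 0.93 ± 0.12 and Fn1, fibronectin, fell by 0.84 ± 0.11. Vcam1, an adhesion molecule (0.17 ± 0.13), and Cd5l, a secreted macrophage protein (-0.28 ± 0.41), were not called. Whether macrophages were more or fewer among the cultured cells was not tested.

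Among 28 C-type lectins and phagocytic receptors 15 were higher and 4 lower, with a median of 0.30. Msr1, a scavenger receptor, read 1226, 1311 and 1208 on the Flt3-L 12 h arrays, against 348, 399 and 356 on the unstimulated arrays (log2 difference 1.76 ± 0.08 SE, adjusted p = 6.33e-15). Trem2 (1.17 ± 0.07), Clec4d (0.91 ± 0.06) and Fcgr1 (0.79 ± 0.08) rose. Mrc1, the mannose receptor, read 157, 102 and 98.8 on the Flt3-L 12 h arrays, against 476, 331 and 366 on the unstimulated arrays (log2 difference -1.73 ± 0.16 SE, adjusted p = 3.94e-09). Trem1, of neutrophils and monocytes, fell by 1.05 ± 0.16. Of the other scavenger receptors Cd36 rose (0.26 ± 0.07), Olr1 fell (-0.44 ± 0.09) and Marco was not called (0.19 ± 0.09). Of the other Fc receptors Fcgr3 (0.48 ± 0.06) and Fcgr2b (0.40 ± 0.06) rose and Fcgr4 was not called (0.15 ± 0.10). Mertk (-0.35 ± 0.15) and Timd4 (-0.20 ± 0.13), which take up dying cells, were not called. Mertk was called lower with the replicate number as a block (adjusted p = 0.0395), and without replicate 1 at 12 h or unstimulated replicate 2.

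Of 28 genes of conventional dendritic cells, the lineage that Flt3-L cultures yield later, 12 were higher and 2 lower (median 0.22). Rab7b, a late endosomal GTPase, rose most (2.01 ± 0.06), and Itgax, which encodes CD11c, read 287, 271 and 274 on the Flt3-L 12 h arrays, against 175, 188 and 197 on the unstimulated arrays (log2 difference 0.58 ± 0.05 SE, adjusted p = 2.11e-09). Cd86 rose by 0.66 ± 0.10. Of genes that define the subset that takes up dead cells, Clec9a fell (-0.55 ± 0.13) and Cadm1 rose (0.45 ± 0.10), while Xcr1 (0.19 ± 0.17), Batf3 (-0.08 ± 0.09) and Tlr3 (-0.18 ± 0.11) were not called. Zbtb46, a factor of committed dendritic cells, read 125, 120.2 and 133 on the Flt3-L 12 h arrays, against 169, 150.5 and 156 on the unstimulated arrays (log2 difference -0.33 ± 0.07 SE, adjusted p = 0.000596), and its groups did not overlap. Of 13 genes of MHC class II presentation 4 were higher, 1 was lower and 8 were not called, with H2-Aa at -0.01 ± 0.07, Cd74 at -0.10 ± 0.07 and Ciita at 0.13 ± 0.08 among those not called.

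Of 16 plasmacytoid dendritic cell genes 5 were higher (31.2%) and 3 lower (18.8%), against 17.8% and 18.1% of all genes. Ccr9, a chemokine receptor of immature plasmacytoid cells, read 1732, 1526 and 1567 on the Flt3-L 12 h arrays, against 487, 479.6 and 448 on the unstimulated arrays (log2 difference 1.77 ± 0.14 SE, adjusted p = 1.67e-10). Siglech rose by 0.54 ± 0.08 and Tlr7 by 0.73 ± 0.08, while Tcf4, the factor that maintains the lineage, was not called (-0.06 ± 0.05). Integrins Itgb5 and Itgav, which pair to bind dead cells, rose by 1.25 ± 0.05 and 0.75 ± 0.07. They belong to a list of 25 chemokine receptors, selectins and integrins with 13 higher and 2 lower (median 0.20).

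Erythroid genes fell in an uneven way. Of 25 tested 15 were lower and 2 higher, with a median of -0.39. Car1, carbonic anhydrase 1, read 1164, 705 and 750.1 on the Flt3-L 12 h arrays, against 6918, 6371 and 6461 on the unstimulated arrays. Replicate 1 was the highest at 12 h and still far below every unstimulated array (log2 difference -2.95 ± 0.23 SE, adjusted p = 2.27e-10). Klf1, the master factor of the lineage, read 481, 468 and 473 on the Flt3-L 12 h arrays, against 1546, 1368 and 1599 on the unstimulated arrays (log2 difference -1.66 ± 0.10 SE, adjusted p = 2.01e-12). Gata1 (-1.43 ± 0.10), Aqp1 (-1.39 ± 0.12) and Hemgn (-1.07 ± 0.08) fell too. Pklr, the pyruvate kinase of liver and red cells, which was not on the list, read 106, 106 and 104 on the Flt3-L 12 h arrays, against 1262, 1243 and 1225 on the unstimulated arrays (log2 difference -3.56 ± 0.08 SE, adjusted p = 1.37e-20). Alas2, of haem synthesis, was at 0.11 ± 0.06 and Slc4a1, the band 3 anion exchanger, at -0.05 ± 0.06, among 8 of the list not called. Other genes of the list fell and were called, such as Sptb (-0.88), Ermap (-0.71), Rhd (-0.67), Ank1 (-0.58), Rhag (-0.45) and Kel (-0.39). Whether genes of late erythroblasts fell less than those of early ones was not tested. Steap3, the endosomal ferrireductase of erythroblasts, from the list of metal handling genes, read 214, 236 and 225 on the Flt3-L 12 h arrays, against 927, 919.6 and 1079.6 on the unstimulated arrays (log2 difference -2.11 ± 0.07 SE, adjusted p = 1.52e-17).

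T and NK cell genes were lower for 15 of 26 and higher for 2, with a median of -0.29. Ncr1, the NK receptor NKp46, read 39.2, 34.4 and 33.0 on the Flt3-L 12 h arrays, against 246, 200.3 and 214 on the unstimulated arrays (log2 difference -2.63 ± 0.17 SE, adjusted p = 7.94e-12). Klrb1c, which encodes NK1.1, fell by 1.25 ± 0.09, Il2rb fell by 0.84 ± 0.13 and Gzma fell by 0.94 ± 0.08. Of the T cell receptor complex, Cd3g fell by 0.83 ± 0.19, while Cd3e (-0.15 ± 0.13) and Cd3d (-0.05 ± 0.10) were not called. Thy1 (-0.77 ± 0.09), the coreceptor Cd4 (-0.66 ± 0.16), Cd8a (-0.27 ± 0.09) and the kinase Zap70 (-0.23 ± 0.09) fell as well. Zap70 was not called when any 1 of the 6 arrays was left out, nor Cd8a without replicate 3 at 12 h or unstimulated replicate 2. The 2 that rose, Cd28 (1.06 ± 0.07) and Klrd1 (1.11 ± 0.11), went against the rest of the list. The 12 h readings of Ncr1 and Klrb1c were all below 40.

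Stromal and endothelial genes had the lowest median of the lineage lists, -0.59, with 13 of 22 lower and 2 higher. Ibsp, bone sialoprotein of osteoblasts, read 38.4, 39.8 and 40.9 on the Flt3-L 12 h arrays, against 252, 215 and 241 on the unstimulated arrays (log2 difference -2.57 ± 0.07 SE, adjusted p = 5.43e-19). Sparc, osteonectin, read 149.8, 158 and 146 on the Flt3-L 12 h arrays, against 533, 624 and 684 on the unstimulated arrays (log2 difference -2.02 ± 0.13 SE, adjusted p = 5.58e-12). Cxcl12, the chemokine of niche stroma, read 71.3, 72.4 and 69.6 on the Flt3-L 12 h arrays, against 209, 199 and 213 on the unstimulated arrays (log2 difference -1.54 ± 0.06 SE, adjusted p = 1.69e-16). Lepr (-1.06 ± 0.07), Dcn (-1.46 ± 0.35) and Col1a1 (-0.56 ± 0.08) fell, and Col3a1 was not called (0.12 ± 0.07). With the dimmest 33.3% of genes left out, 8 of the list were called lower.

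**Figure D4:**
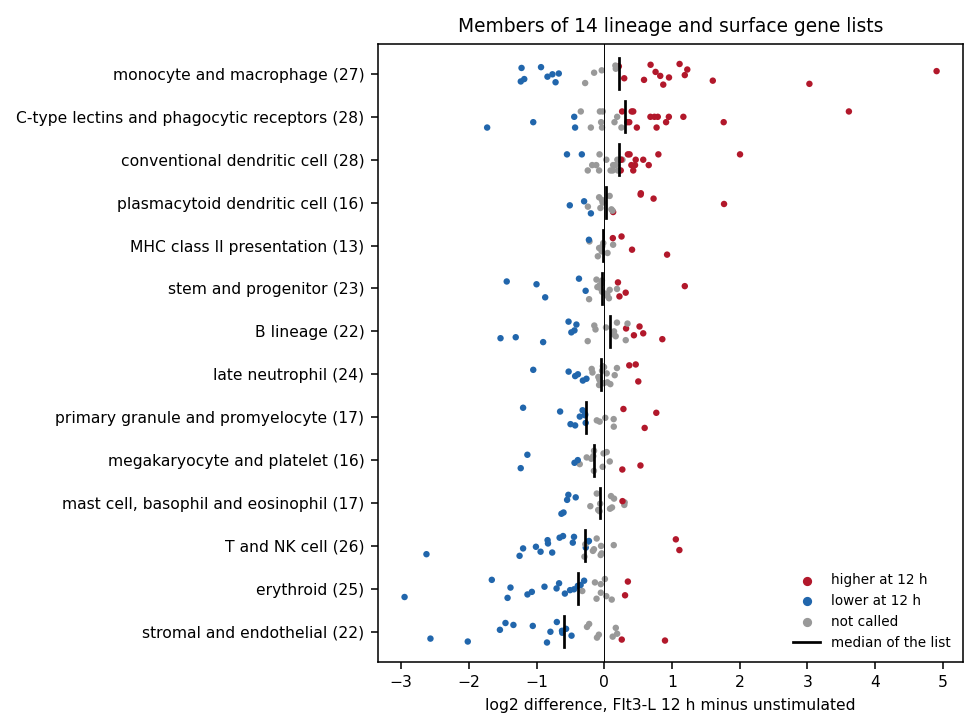
Log2 difference, Flt3-L 12 h minus unstimulated, of the members of 14 lineage and surface receptor lists, drawn as in the plot of the functional lists. The macrophage list spans from Klf4 at -1.23 to Gpnmb at 4.91, and the T and NK cell, erythroid and stromal lists hold mostly blue points.

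B lineage genes moved both ways. Of 22 tested 5 were higher (22.7%) and 7 lower (31.8%), against 17.8% and 18.1% of all genes. With the replicate number as a block in the fit, 9 were higher. Fcer2a, which encodes CD23 of mature B cells, read 212, 215 and 234 on the Flt3-L 12 h arrays, against 635, 643 and 633 on the unstimulated arrays (log2 difference -1.53 ± 0.11 SE, adjusted p = 3e-11). Cr2 (-1.31 ± 0.07) and Bank1 (-0.90 ± 0.07), also of mature cells, fell in the same arrays. Rag1, the recombinase of B cell precursors, read 778, 585 and 694 on the Flt3-L 12 h arrays, against 461, 401 and 516 on the unstimulated arrays (log2 difference 0.58 ± 0.14 SE, adjusted p = 0.00172). Rag2 rose by 0.52 ± 0.11, while Pax5 was not called (-0.15 ± 0.10). Igll1, the surrogate light chain of pro-B cells, fell by 0.41 ± 0.11, so the early genes did not all go one way.

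Late neutrophil genes had shares called near those of all genes (17.8% higher and 18.1% lower). Of 24 tested 3 were higher (12.5%) and 6 lower (25%), with a median of -0.05. The 15 not called, Ngp (-0.03 ± 0.12) and Mmp9 (-0.09 ± 0.11) among them, compare with 12766 of all 19935 genes. Primary granule genes were lower for 9 of 17 (52.9%) and higher for 3 (17.6%), with a median of -0.28. Mpo, myeloperoxidase, read 4795, 4884 and 4670.3 on the Flt3-L 12 h arrays, against 6550.2, 6380.0 and 6410.5 on the unstimulated arrays (log2 difference -0.43 ± 0.08 SE, adjusted p = 6.14e-05), and Prtn3 fell by 0.50 ± 0.10. Cebpa, the factor that commits progenitors to the myeloid lineage, rose (0.60 ± 0.08). Mast cell, basophil and eosinophil genes were lower for 5 of 17 (29.4%) and higher for 1 (5.9%), with Epx, eosinophil peroxidase, at -0.55 ± 0.12. Platelet lineage genes were lower for 4 of 16 (25%) and higher for 2 (12.5%), shares near those of all genes. Tubb1 (-1.23 ± 0.19) and Gp9 (-1.14 ± 0.11) were lower, and Pf4 was not called (-0.15 ± 0.13).

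Stem and progenitor genes had shares called near those of all genes, 4 of 23 higher and 5 lower (median -0.04). Cd93, of progenitors and myeloid cells, read 3396, 3269 and 3324 on the Flt3-L 12 h arrays, against 1421, 1470.5 and 1489 on the unstimulated arrays (log2 difference 1.19 ± 0.04 SE, adjusted p = 4.04e-17). Cd34 rose by 0.32 ± 0.09. Gfi1b, a factor shared with the erythroid and platelet lineages, fell (-1.44 ± 0.07). Myb (-0.04 ± 0.05), Meis1 (-0.10 ± 0.10) and Hoxa9 (-0.03 ± 0.06) were not called.

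Smaller lists held single large changes, and their shares called are set against 17.8% higher and 18.1% lower of all genes. In metal handling 4 of 17 genes were higher (23.5%) and 7 lower (41.2%). Slc39a8, a zinc importer, was at -1.52 ± 0.10, Mt2, metallothionein 2, at -1.12 ± 0.23 and Slc30a1, a zinc exporter, at 0.75 ± 0.06. Glucocorticoid-responsive genes were higher for 6 of 17 and lower for 6 (35.3% each), with Tsc22d3, a sensitive target, at -1.01 ± 0.07 and Fkbp5, another, at 0.08 ± 0.07, not called. Only 3 of these were called higher without replicate 3 at 12 h or without unstimulated replicate 1. Clock genes were higher for 9 of 17 (52.9%) and lower for 2 (11.8%), led by the repressor Bhlhe40 (1.24 ± 0.09), with Per1 lower (-0.49 ± 0.06). Glycolysis and hypoxia genes were higher for 11 of 30 (36.7%) and lower for 3 (10%). The main glucose carrier Slc2a1 (0.01 ± 0.08) and Ldha (-0.07 ± 0.06) were not called. Interferon-stimulated genes went both ways, 7 of 23 higher (30.4%) and 5 lower (21.7%), the share lower being near that of all genes. Only 3 were called higher without replicate 1 at 12 h, and 3 and 2 were called lower without replicate 3 at 12 h and without unstimulated replicate 3.

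The 12 h changes were then set beside the state at 24 h in the same medium. This comparison uses the 12 h arrays again, so a gene that was by chance high at 12 h would look lower at 24 h. It called 1114 genes higher (5.59%) and 1100 lower (5.52%) at 24 h, 36 (0.181%) and 53 (0.266%) of them by at least 2-fold. Some of the 12 h changes went on. Of 29 mitosis genes 28 were lower at 24 h than at 12 h and none higher (median -0.49), and replication genes were lower for 12 of 32, with none higher (median -0.16). Of 25 erythroid genes 22 were lower and none higher (median -0.90). Aqp1, the red cell water channel, averaged 213 ± 17.4 at 24 h and 1307 ± 244 at 12 h (SD, n = 3 each), a further -2.60 ± 0.12 (adjusted p = 2.17e-13). Hemgn averaged 154 ± 7.29 at 24 h and 820.1 ± 65.9 at 12 h, a difference of -2.41 ± 0.08. Alas2 was not called between them (-0.02 ± 0.06) and lost its signal later, with 3529.5 ± 195 at 48 h and 101 ± 7.82 at 11 days.

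Other changes turned the opposite way. Vcan, the matrix proteoglycan versican, read 1296, 1696 and 1288 on the Flt3-L 12 h arrays, against 239.9, 472 and 294 on the unstimulated arrays (log2 difference 2.14 ± 0.18 SE, adjusted p = 5.65e-10). At 24 h it averaged 419 ± 47.7, near the unstimulated mean of 335 ± 122, and its difference from 12 h was -1.76 ± 0.18 (adjusted p = 8.89e-08). F10 and Trib3 came part of the way back, at -0.43 ± 0.08 and -0.64 ± 0.11. The C1q genes and Mrc1 did the reverse. C1qc averaged 1202 ± 318 at 24 h and 294 ± 47.9 at 12 h (2.01 ± 0.17, adjusted p = 4.96e-09). It stood at 2972 ± 339 at 48 h and 6080.4 ± 257 at 11 days. Mrc1 averaged 444 ± 11.2 at 24 h, 1.93 ± 0.16 above 12 h (adjusted p = 3.76e-09). Gas6, a ligand of phagocytic receptors, fell by 12 h (-0.76 ± 0.10) and was higher at 24 h than at 12 h (1.51 ± 0.10).

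Of the monocyte and macrophage list, 17 of 27 were higher at 24 h than at 12 h and 1 was lower. Over all genes 5.59% were higher and 5.52% lower at 24 h than at 12 h, and all list counts at 24 h are to be read against these. Class II presentation genes were higher for 9 of 13, with H2-Aa, not called at 12 h, averaging 3872 ± 197 at 24 h and 2412 ± 89.5 at 12 h (0.68 ± 0.07, adjusted p = 3.65e-08). Of 26 immediate early genes 5 were higher at 24 h than at 12 h and none was lower (median 0.05). Sterol synthesis genes were lower for 3 of 17 and higher for none, and Hmgcs1 was not called (-0.15 ± 0.07). Kcnma1 averaged 5403 ± 135 at 24 h, 4685 ± 205 at 48 h and 186 ± 26.9 at 11 days.

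**Figure D5:**
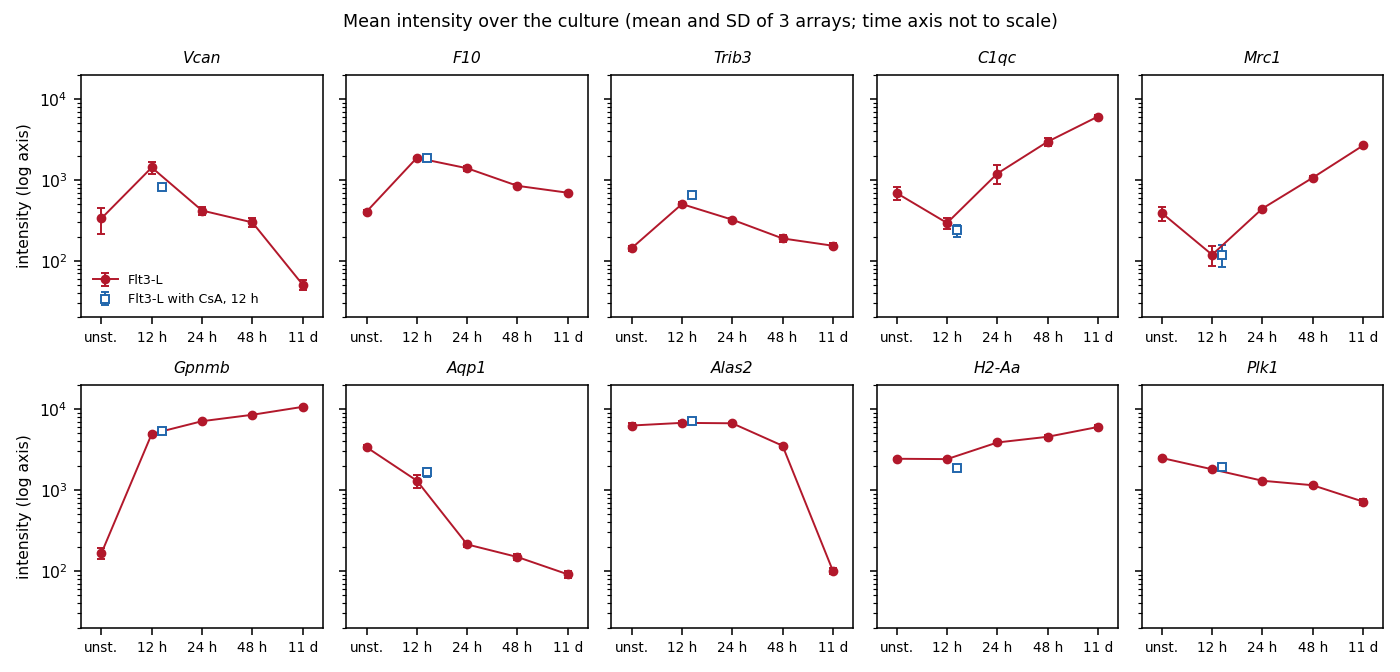
Mean intensity of 10 genes in unstimulated cells and after 12 h, 24 h, 48 h and 11 days of Flt3-L (red, joined in time order on an axis not to scale), and in the 12 h cultures with CsA (open blue squares). Bars are the SD of 3 arrays on a log axis. Vcan, F10 and Trib3 peak at 12 h, C1qc and Mrc1 are lowest there, and Aqp1 keeps falling while Alas2 is not called between 12 h and 24 h.

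CsA was added 30 min before Flt3-L, and its 12 h cultures were compared with the 12 h cultures without it, so both comparisons share the arrays without CsA. At 12 h with CsA, 562 genes were higher (2.82%) and 779 lower (3.91%) than without it, none and 5 (0.0251%) of them by at least 2-fold. These counts depend on single arrays. Leaving out 1 of the CsA arrays gave 451, 332 and 3221 calls in place of 1341 for replicates 1, 2 and 3. Leaving out 1 of the arrays without CsA gave 594, 664 and 473 in the same order. Replicate 3 with CsA correlated better with replicate 3 without it (0.9978) than with its own group (0.9972 at most). The files do not tell whether this array carries the right label, its cells responded less to CsA, or arrays of equal number share something. None of these was tested, so every difference with CsA rests on that label as given. With the replicate number as a block, 2111 genes were called.

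Of the genes that Flt3-L culture raised, Clec4n averaged 279.7 ± 48.4 with CsA and 679.9 ± 73.5 without (SD, n = 3 each), a difference of -1.29 ± 0.13 (adjusted p = 3.17e-06). Mmp14 (-0.94 ± 0.14), Cmklr1, the chemerin receptor (-0.79 ± 0.09), and Cd101 (-1.07 ± 0.17) were also lower with CsA. Fn1, which had fallen by 12 h, was lower still with CsA (-1.05 ± 0.11, adjusted p = 3.17e-06). Gpnmb (0.13 ± 0.07), C3ar1 (-0.07 ± 0.07) and Kcnma1 (0.08 ± 0.10) were not called. Sterol synthesis genes were higher with CsA for 10 of 17, ATF4 list genes for 10 of 28, synthetases for 8 of 19 and folding genes for 9 of 20, and none of these lists had a gene lower. Over all genes 2.82% were higher with CsA and 3.91% lower, and all list counts with CsA are to be read against these. When single arrays were left out, the calls over all genes moved too, as given above. The sterol count was 5 without replicate 1 or 2 without CsA, and 4 or 2 without replicate 1 or 2 with it. The synthetase count was 4 or 5 without replicate 2 or 3 without CsA, and 5 without replicate 1 or 2 with it. The folding count was 5 without any of these 4 arrays. The ATF4 count held between 7 and 9 in all 6 such fits. Ddit3 averaged 1092 ± 76.4 with CsA and 734 ± 76.7 without (0.58 ± 0.11, adjusted p = 0.00266). Dnajb9, which fell by 12 h without CsA, averaged 1075 ± 37.0 with it and 712 ± 72.7 without (0.60 ± 0.07). Of the macrophage list 6 of 27 were lower with CsA and none higher, with 5 or 6 in each fit that left out an array. The calls of Clec4n, Mmp14, Cmklr1, Cd101, Fn1, Ddit3 and Dnajb9 held whichever of the 6 arrays was left out.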

How the data were processed

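Per the submitters' processing notes, arrays were summarised by RMA. The deposited values were linear intensity values per probe set, normalized by the authors. The plan assumed log2 values, but linear ones were deposited, so log2 was taken first. Of 28815 probe sets, 21780 had 1 gene symbol in GEO's platform annotation, 1605 had several and 5430 had none. The brightest probe set stood for each of 998 genes with several, leaving 19935 genes. Differences were tested with limma 3.58.1 (R 4.3.3) on all 27 arrays in 9 groups, with Benjamini-Hochberg adjustment and a threshold of 0.05. The SE is limma's.

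The 44 gene lists, the comparisons and the motifs were chosen with earlier results of these data known. Their 1061 entries covered 998 genes, of which 918 were tested and 80 are not analysed here. Named genes were, among called genes with no overlap between groups, the 25 that rose most and the 25 that fell most, without predicted genes, clones, small RNAs, sensory receptors and immune receptor segments. Added were up to 6 members of each list with the largest changes, marked key members, and the 10 largest differences in each direction at 24 h and with CsA among genes also called at 12 h. The text uses a subset, and members named as exceptions of a list were chosen after their values were seen.

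Equal replicate numbers of the 12 h and unstimulated groups deviated together weakly, at correlations of 0.1957, 0.1437 and 0.1033. Unequal numbers gave -0.1501 to 0.0334. The reported SEs, p-values and calls come from the fit without pairing, and the replicate number as a block was run as an alternative. The labels do not say what a number shares, and p-values measure the spread between these arrays. Alternatives were the block, the 2 groups alone, a variance trend, robust variance, array weights, a filter on dim genes, quantile normalization again, median centring, the mean of probe sets and leaving out arrays. Promoters, 250 bases before to 50 after the first listed start, came from RefSeq (GRCm38.p6), and motifs were searched on both strands.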

Additional observations from a re-analysis of the deposited data

Results flagged for a closer look

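For 15 of all genes tested the change at 24 h had the opposite sign to the change at 12 h and was at least 2-fold, each past limma's test, with 11 higher and 4 lower at 24 h. The 9 of them named in the text follow. These are differences between 24 h and 12 h, and both steps use the 12 h arrays. The complement genes C1qa, C1qb and C1qc were below the unstimulated level at 12 h and were higher at 24 h than at 12 h by 1.2941, 1.9803 and 2.0057 on the log2 scale. Mrc1, the mannose receptor, did likewise at 1.9314. Cbr2, a carbonyl reductase of tissue macrophages, averaged 458 ± 87.2 at 24 h and 97.5 ± 13.4 at 12 h (SD, n = 3 each), a difference of 2.2218. Frmd4b averaged 647 ± 82.9 at 24 h and 199 ± 16.2 at 12 h, a difference of 1.6972. Gas6 differed by 1.5059 and the kinase gene Plk2 by 1.0084. Vcan alone of the 9 turned downward, at -1.7615.

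For 5 genes the 12 h cultures with CsA were lower than those without it by at least 2-fold, each past the same test. The log2 difference with CsA minus without was -1.2893 for Clec4n, -1.069 for Cd101 and -1.0481 for Fn1, which were all called at 12 h against unstimulated cells. The other 2, Jaml (-1.34 ± 0.12) and Ephx1 (-1.11 ± 0.12), were not called at 12 h against unstimulated cells, and are named after their values were seen.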

How the results depend on the processing

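The counts of genes higher and lower at 12 h against unstimulated cells, and of genes changed at least 2-fold, each stayed within 1.5 times their value under all 10 other settings. Those gave 3115 to 4540 genes higher, 3512 to 4076 lower and 320 to 370 changed at least 2-fold. Leaving out 1 of the 6 arrays gave 2959 to 3182 higher, 3105 to 3615 lower and 344 to 384 changed at least 2-fold. The replicate number as a block gave 3890 higher, 3758 lower and 357 changed at least 2-fold, and pairing the samples in this way moved no count of these 3 by over 1.5 times. The count for 24 h against 12 h was 2092 to 3102 under 8 settings and 1601 to 1956 without 1 of its arrays.

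The count for CsA against no CsA at 12 h was the one that depended on the processing. It was 1341 as reported, 2111 with the replicate block, 5301 with array weights, and 332 to 3221 without 1 of its arrays. The cause was not tested. The fits without single arrays at 24 h and with CsA, and the list counts with CsA, were chosen after seeing the data.

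For 266 genes of the text, 220 of them called, the 12 h call was followed across these settings. No gene that was called in the reported fit or in the setting compared changed sign there. For genes called in neither fit the sign was not followed. Of these 266 genes 253 kept their side of the threshold in every setting run. The calls of Ier3, Bcl2l1, Cd8a and Zap70 were lost without single arrays, as given above, and that of Zap70 also with a variance trend. Genes given as not called that were called under another setting were Abca1 (the 2 groups alone, also with the replicate block, and array weights), Mertk (as given above, and with array weights and the block in the 2 groups alone), Timd4, Xcr1 and Csf2ra (the block in the 2 groups alone), Alas2 and Atf4 (quantile normalization again), Col3a1 (array weights) and Dhodh (array medians subtracted). Short counts of list members moved with single arrays: 1 hydrolase was lower without replicate 3 at 12 h, no class II gene was lower without replicate 2 or 3 at 12 h or unstimulated replicate 2, 1 stromal gene was higher without replicate 1 at 12 h, and no mast cell or eosinophil gene was higher without unstimulated replicate 2. The 3 arrays per group limit the precision, and without a background level the folds of dim genes are least certain.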
